A study of Mus musculus with 8 samples.

Results

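The homologous recombination and Fanconi repair genes were followed in mouse embryonic stem cells (ESCs) depleted of Rad21, the kleisin subunit of cohesin. A list of 39 genes was taken by function and not by expression, though with earlier results of these data known. A gene counted as measured when the array annotation gave a probe set with its symbol alone. This held for 37 of the 39 genes, among 18193 genes measured in all, and Rbbp8 and Xrcc2 were not analysed here. The 37 genes had 85 probe sets, and each gene is described by the probe set with the highest mean over the 8 arrays.

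Cells of the R1/E line, a mouse ESC line, were transfected with 800 ng of esiRNA at 80000 cells per well and harvested after 48 h. EsiRNA is a mixture of short interfering RNAs cut by an enzyme from a long double-stranded RNA. In 4 samples the esiRNA was directed against Rad21, and in 4 control samples against luciferase (Luc), a gene that mouse cells lack. All 8 samples were of 1 cell line, which limits the comparison to that line, and each was hybridized to an Affymetrix mouse expression array; the labels call the 4 samples of a group biological replicates, numbered 1 to 4. Levels are GCRMA values on the log2 scale, a background-corrected and normalized brightness of a probe set, so levels of different genes cannot be set against each other. Changes are given as Rad21 esiRNA minus Luc esiRNA with the standard error (SE) of the model.

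Homologous recombination copies the sequence of an intact sister chromatid into a broken one: the ends are resected, the single strands invade the intact duplex with the help of BRCA2 and other mediators, and the joint molecules are then taken apart by helicases and nucleases. The Fanconi pathway opens crosslinks between DNA strands. Its core complex attaches ubiquitin to the FANCD2-FANCI pair, which directs the nucleases, and the break made in this way is repaired by recombination. ESCs divide quickly with a short G1 phase and are known for a strong reliance on recombination, while cohesin itself holds the sister chromatids together.

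The targeted transcript was lower on each Rad21 esiRNA array than on any Luc esiRNA array. Its brightest probe set read 11.69, 11.75, 12.37 and 12.52 on Rad21 esiRNA arrays 1 to 4, against 13.62, 13.42, 13.83 and 13.79 on Luc esiRNA arrays 1 to 4, a change of -1.58 ± 0.21 (limma, adjusted p = 0.00222) that left 33.4% of the control signal. Its 2 other probe sets changed by -2.59 ± 0.19 (limma, adjusted p = 0.000164) and -0.98 ± 0.19 (limma, adjusted p = 0.0114) and left 16.6% and 50.6%, so the share left differed between probe sets. Array medians lay between 3.08 and 3.16, arrays of a group correlated at 0.998 to 0.999 across probe sets, and 6697 of 45037 probe sets (14.9%) passed the adjusted p of 0.05. All 8 ESC markers were bright in both groups. The mean of their log2 values was 13.63 to 13.67 on Rad21 esiRNA arrays and 14.08 to 14.15 on Luc esiRNA arrays. After Rad21 esiRNA 6 of the 8 (75%) were lower, beside 22% of all genes with a mean of at least 4. Esrrb (-1.43), Nanog (-0.83) and Pou5f1 (-0.55) fell the most. Sox2 (-0.01, limma, adjusted p = 0.972) and Tdgf1 (0.12, limma, adjusted p = 0.116) did not pass. Of 10 fibroblast markers 9 had a mean under 4, where GCRMA values flatten out, the exception being Thy1 (3.96 in Rad21 esiRNA cells, 4.53 in Luc esiRNA cells), and so did 6 of 7 endoderm markers, the exception being Foxa2 (7.40 in Rad21 esiRNA cells, 2.77 in Luc esiRNA cells). As the samples were bulk cultures, fewer cells of a type and less RNA per cell cannot be told apart.

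Of the 37 repair genes, 13 were lower after Rad21 esiRNA, 2 were higher and 22 did not pass the test. Together 15 of the 37 (40.5%) passed, beside 22.6% of all genes. The share of lower genes was 35.1%, beside 12.6% of all genes, and the share of higher genes was 5.41%, beside 10.1%. Because 7894 of the 18193 genes had a mean under 4 and few of these can pass, the genes with a mean of at least 4 are the closer background: 13 of 35 repair genes (37.1%) and 22% of 10299 genes were lower, and 2 of 35 (5.71%) and 16.7% were higher. In either direction 15 of 35 (42.9%) and 38.6% passed, shares that lie close together. The shares of 22% lower and 16.7% higher are also the background for the counts by complex and by gene list below. The median change was -0.13 for the repair genes, 0.00 for all genes and -0.03 for genes with a mean of at least 4. Levels of the 2 groups did not overlap for 15 of the 37 genes, 14 lower and 1 higher, beside 27.8% of all genes in either direction. Among genes with a mean of at least 4 the share was 15 of 35 for the repair genes (42.9%) and 45.7% for all such genes, so in either direction it was not above that background. By direction, 14 of 35 repair genes and 2682 of 10299 genes were lower without overlap. Higher without overlap were 1 of 35 repair genes and 2025 of 10299 genes. The falls were moderate: the 13 lower genes kept between 57.2% and 84.7% of their control signal, and 4 of them changed by at least 0.5, a limit chosen after the values were seen.

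**Figure D1:**
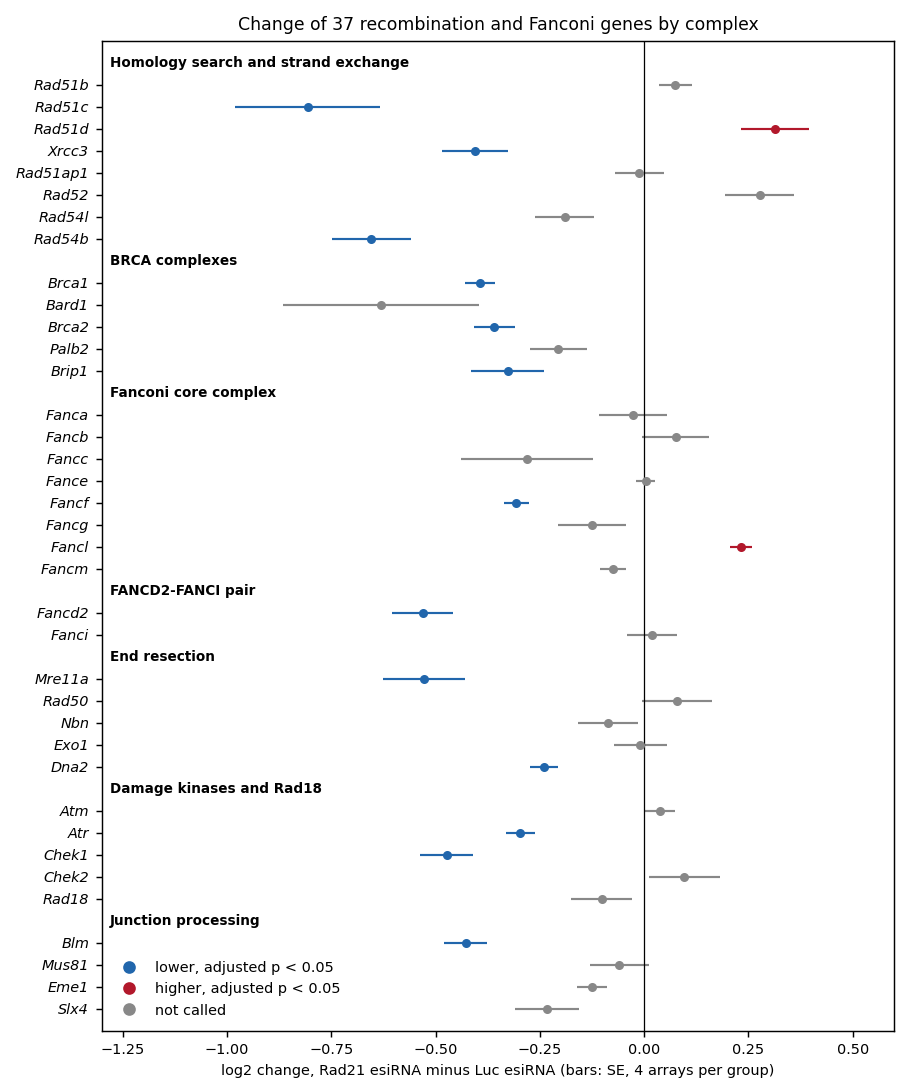
Change of each of the 37 genes (horizontal axis, log2, Rad21 esiRNA minus Luc esiRNA; bars are the SE with 4 arrays per group), grouped by complex and coloured by the limma call. The 13 lower genes run from -0.81 for Rad51c to -0.24 for Dna2 and occur in every group of genes, and the 2 higher ones are Rad51d at 0.31 and Fancl at 0.23.

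**Figure D2:**
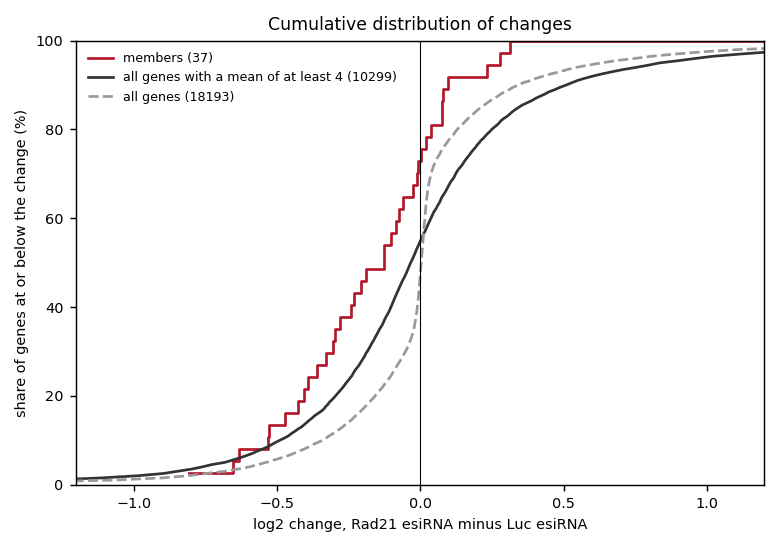
Cumulative share of genes (vertical axis, %) at or below each log2 change (horizontal axis, Rad21 esiRNA minus Luc esiRNA) for the 37 repair genes, the 10299 genes with a mean of at least 4 and all 18193 genes. The curve of the repair genes lies to the left through the middle of the range, with a median of -0.13, and has no gene below -0.81 or above 0.31.

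Promoters are shown for 5 of the genes past the test, 4 lower ones (Brca1, Brca2, a helicase and a nuclease) and the higher Fancl, to set their upstream sequence beside their values. The sequences are the 200 bases before the transcription start in RefSeq (assembly GRCm38.p6), which held an entry for 31 of the 37 genes. They are written 5′ to 3′ along the gene, with matches to 4 motifs in capitals. The motifs were E2F (TTTCCCGC, TTTGGCGC, TTTCGCGC or TTTGCCGC), the CCAAT box (CCAAT), the cell cycle homology region CHR (TTTGAA or TTCGAA) and NRF1 (GCGCA followed directly by TGCGC), on both strands, and no matches overlapped in the windows shown. Motifs and promoters were chosen after the values and matches had been seen.
Brca1, chr11:101551956-101552155, minus strand: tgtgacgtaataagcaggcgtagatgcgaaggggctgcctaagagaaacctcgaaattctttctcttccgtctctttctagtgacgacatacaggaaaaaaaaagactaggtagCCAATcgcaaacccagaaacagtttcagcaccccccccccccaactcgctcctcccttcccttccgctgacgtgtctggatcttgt
Brca2, chr5:150522421-150522620, plus strand: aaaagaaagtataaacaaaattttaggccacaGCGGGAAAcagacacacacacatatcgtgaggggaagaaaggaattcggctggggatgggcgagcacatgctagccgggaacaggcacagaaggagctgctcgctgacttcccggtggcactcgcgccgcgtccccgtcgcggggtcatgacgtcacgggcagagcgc
Blm, chr7:80534999-80535198, minus strand: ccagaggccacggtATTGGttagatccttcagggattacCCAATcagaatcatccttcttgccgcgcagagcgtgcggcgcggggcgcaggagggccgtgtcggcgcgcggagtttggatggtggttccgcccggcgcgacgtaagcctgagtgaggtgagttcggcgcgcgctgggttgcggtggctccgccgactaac
Mre11a, chr9:14784454-14784653, plus strand: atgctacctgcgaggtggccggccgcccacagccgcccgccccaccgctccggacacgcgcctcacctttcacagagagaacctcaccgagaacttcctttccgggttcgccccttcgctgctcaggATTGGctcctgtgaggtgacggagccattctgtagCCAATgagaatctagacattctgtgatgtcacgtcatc
Fancl, chr11:26386884-26387083, plus strand: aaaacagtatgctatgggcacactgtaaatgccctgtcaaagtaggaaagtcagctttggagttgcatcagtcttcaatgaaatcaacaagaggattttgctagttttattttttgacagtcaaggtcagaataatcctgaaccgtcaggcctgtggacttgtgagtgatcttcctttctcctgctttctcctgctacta
Brca1 had a CCAAT box 86 to 82 bases before its start, Mre11a had a pair at 73 to 69 and 38 to 34 bases, and Blm had a pair at 186 to 182 and 161 to 157 bases. An E2F match lay 168 to 161 bases before the start of Brca2, and the window of Fancl held none of the 4 motifs.

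Over the 250 bases before the start, a CCAAT box was found in 17 of the 31 genes with an entry (54.8%), beside 37.5% of the 27025 genes in the table. An E2F match was found in 4 of 31 (12.9%, beside 2.16%), in Bard1, Brca2, Fancg and Chek2, of which only Brca2 was among the lower genes. A CHR match occurred in Bard1 and Atr, 2 of 31 (6.5%, beside 19.6%), and an NRF1 match in Dna2, 1 of 31 (3.2%, beside 0.877%). Within the repair genes, 6 of the 11 lower genes with an entry and 11 of the other 20 held a CCAAT box. The 27025 genes were not limited to expressed ones, whereas 35 of the 37 repair genes had a mean of at least 4. The 2 sets are thus unlike, and shares among expressed genes were not taken. These are matches of letters in a window, with no measurement of binding.

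Strand exchange gave 3 lower genes and 1 higher gene out of 8, and its genes did not move one way. Rad51c, a subunit of the mediator complexes BCDX2 and CX3, read 6.36, 6.35, 7.09 and 6.91 on Rad21 esiRNA arrays 1 to 4, against 7.46, 7.39, 7.57 and 7.52 on Luc esiRNA arrays 1 to 4. The groups did not overlap, arrays 1 and 2 were the lowest of the Rad21 esiRNA arrays, and the change of -0.81 ± 0.17 (limma, adjusted p = 0.0194) was the largest of all 37 genes. Without Luc esiRNA replicate 1, 3 or 4 the adjusted p was 0.0519, 0.0542 and 0.0545 and the call was lost, while the change stayed between -0.81 and -0.78. The other Rad51c probe set was also lower, by -0.60 ± 0.11 (limma, adjusted p = 0.00874), without overlap. Xrcc3, the partner of Rad51c in CX3, read 7.01, 7.23, 7.37 and 7.27 on Rad21 esiRNA arrays and 7.74, 7.58, 7.53 and 7.65 on Luc esiRNA arrays. Its groups did not overlap either, and the change was -0.40 ± 0.08 (limma, adjusted p = 0.0127). This probe set carries the suffix _x_at, which marks probes that can bind other transcripts, and the other Xrcc3 probe set changed by -0.20 and did not pass (limma, adjusted p = 0.319).

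Rad51d, a subunit of BCDX2, ran the other way. It read 7.07, 7.21, 7.23 and 7.22 on Rad21 esiRNA arrays, against 6.88, 7.09, 6.78 and 6.73 on Luc esiRNA arrays, so that Luc esiRNA array 2 lay above Rad21 esiRNA array 1 and the groups overlapped. The change was 0.31 ± 0.08 (limma, adjusted p = 0.0409), and the call was lost in 6 of the 8 fits that left out an array, with adjusted p up to 0.103. A second Rad51d probe set gave 5.81, 6.03, 5.73 and 5.78 on Rad21 esiRNA arrays and 5.64, 5.38, 5.31 and 5.32 on Luc esiRNA arrays, without overlap, a change of 0.42 ± 0.09 (limma, adjusted p = 0.0206). Rad51b, another subunit of BCDX2, was near its control level (5.28 ± 0.06 in Rad21 esiRNA cells and 5.21 ± 0.06 in Luc esiRNA cells, SD, n = 4 each).

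Among the other strand exchange factors, Rad54b, a DNA translocase of the Swi2/Snf2 family, was clearly lower. It read 8.67, 8.63, 8.94 and 8.98 on Rad21 esiRNA arrays, against 9.48, 9.50, 9.56 and 9.30 on Luc esiRNA arrays, with no overlap and a change of -0.65 ± 0.09 (limma, adjusted p = 0.0033). Its paralog Rad54l gave mixed probe sets. The brightest read -0.19 and did not pass (limma, adjusted p = 0.136), another with the suffix _x_at was higher by 0.32 ± 0.06 (limma, adjusted p = 0.00858), and one more read 0.26 (limma, adjusted p = 0.0558). Rad52, an annealing protein, read 7.18 ± 0.13 in Rad21 esiRNA cells and 6.90 ± 0.12 in Luc esiRNA cells (SD, n = 4 each), a change of 0.28 that did not pass (limma, adjusted p = 0.0689), and its other probe set had the opposite sign at -0.20. Rad51ap1, which stimulates the formation of joint molecules, differed by -0.01, and its 4 probe sets spanned -0.13 to -0.01 with none called.

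The BRCA genes had the lowest median of the groups of at least 4 genes, at -0.36, and all 5 had a change below 0, 3 of them past the test. Among all genes with a mean of at least 4, 5655 of 10299 had a change below 0. Brca1, a ubiquitin ligase subunit that acts in resection, read 10.90, 11.00, 10.94 and 10.98 on Rad21 esiRNA arrays, against 11.37, 11.35, 11.27 and 11.41 on Luc esiRNA arrays. The arrays of a group lay close together and the groups were far apart, with a change of -0.39 ± 0.04 and the lowest adjusted p of the 37 genes (limma, 0.000454). Of its 3 other probe sets, the 2 with a mean of at least 4 changed by -0.68 and -0.86 and passed, and the dim one did not. Brca2, a mediator of strand exchange that binds single-stranded DNA, read 10.00, 9.98, 10.18 and 9.95 on Rad21 esiRNA arrays and 10.37, 10.41, 10.37 and 10.39 on Luc esiRNA arrays. The Luc esiRNA arrays differed by less than 0.05, every Rad21 esiRNA array lay below them, and the change was -0.36 ± 0.05 (limma, adjusted p = 0.00259).

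Brip1, a helicase that binds BRCA1, read 5.94, 6.19, 6.05 and 6.16 on Rad21 esiRNA arrays, against 6.26, 6.59, 6.30 and 6.49 on Luc esiRNA arrays. The groups were adjacent without overlap, and the change of -0.33 ± 0.09 just passed (limma, adjusted p = 0.0475). It was past the threshold in 1 of the 8 fits that left out an array, with an adjusted p of up to 0.122 in the others. Bard1, the partner of Brca1 in its ligase, had a change of -0.63 that did not pass (limma, adjusted p = 0.144), with levels of 4.69, 4.26, 5.33 and 4.58 on Rad21 esiRNA arrays and 5.07, 5.62, 5.16 and 5.53 on Luc esiRNA arrays. Rad21 esiRNA array 3 lay above 2 of the control arrays, and without it the change was -0.84 (limma, adjusted p = 0.0216). Palb2, which joins BRCA1 to BRCA2, read -0.21 (limma, adjusted p = 0.1002).

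**Figure D3:**
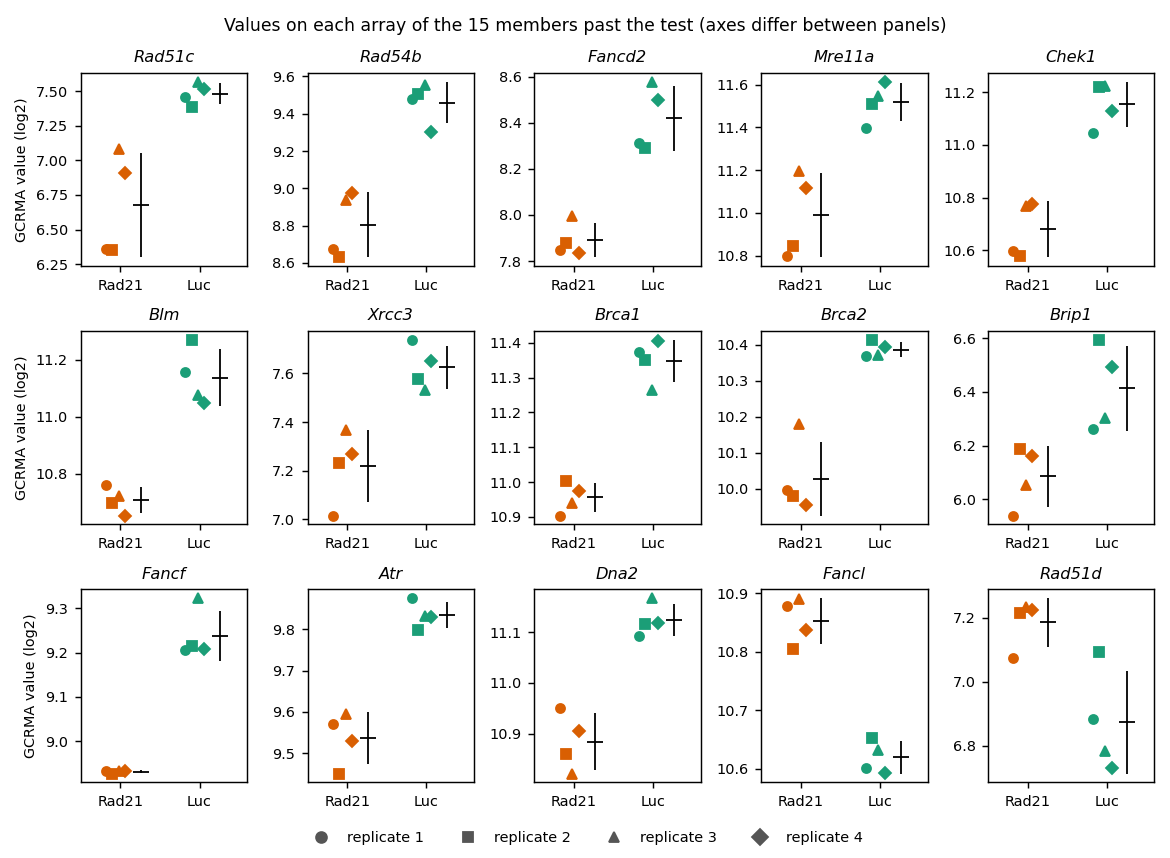
GCRMA value (vertical axes, log2, each panel with its own range) of the 15 genes past the test on every array, Rad21 esiRNA at the left of each panel and Luc esiRNA at the right, with the mean and SD of 4 arrays beside the points and the replicate number as the symbol. The groups do not overlap in 14 panels, and in the panel of Rad51d Luc esiRNA array 2 (7.09) lies above Rad21 esiRNA array 1 (7.07).

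The Fanconi core complex gave 1 lower and 1 higher gene out of 8, with a median change of -0.05. Fancf, an adaptor that holds the complex together, read 8.93 on all 4 Rad21 esiRNA arrays (SD 0.003) and 9.21, 9.21, 9.32 and 9.21 on Luc esiRNA arrays. The Rad21 esiRNA arrays were nearly identical, and the change was -0.31 ± 0.03 (limma, adjusted p = 0.000558). Fancl, the ubiquitin ligase of the core complex, was the higher gene, at 10.88, 10.80, 10.89 and 10.84 on Rad21 esiRNA arrays against 10.60, 10.65, 10.63 and 10.59 on Luc esiRNA arrays. All Rad21 esiRNA arrays lay above all Luc esiRNA arrays, and the change was 0.23 ± 0.03 (limma, adjusted p = 0.00103). The scaffold and accessory subunits Fanca, Fancb and Fance changed by -0.03, 0.08 and 0.00, and the translocase Fancm by -0.07, none past the test. Fancc and Fancg had a mean under 4 in both groups, so that their changes of -0.28 and -0.13 are near the floor of the array.

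The FANCD2-FANCI pair, the substrate of that ligase, was split. Fancd2 read 7.847, 7.880, 7.996 and 7.834 on Rad21 esiRNA arrays, against 8.311, 8.291, 8.577 and 8.500 on Luc esiRNA arrays. There was no overlap, and the change was -0.53 ± 0.07 (limma, adjusted p = 0.00261). A second Fancd2 probe set was also lower, by -0.25 ± 0.07 (limma, adjusted p = 0.0444), and the 2 remaining ones had a mean under 4. Fanci read 9.14 ± 0.09 in Rad21 esiRNA cells and 9.12 ± 0.09 in Luc esiRNA cells (SD, n = 4 each), a change of 0.02. The difference between the changes of the 2 partners was not tested.

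End resection gave 2 lower genes out of 5. Mre11a, the nuclease of the complex with RAD50 and NBN, read 10.80, 10.84, 11.19 and 11.12 on Rad21 esiRNA arrays, against 11.40, 11.51, 11.55 and 11.61 on Luc esiRNA arrays. Rad21 esiRNA arrays 1 and 2 were again the lowest, no array overlapped, and the change was -0.53 ± 0.10 (limma, adjusted p = 0.01). Its partners in the complex did not move past the test: Rad50, the ATPase, read 10.03 ± 0.16 in Rad21 esiRNA cells and 9.95 ± 0.08 in Luc esiRNA cells, and Nbn, which recruits ATM, read 9.89 ± 0.11 in Rad21 esiRNA cells and 9.98 ± 0.11 in Luc esiRNA cells (SD, n = 4 each). Dna2, a nuclease and helicase of long-range resection, read 10.95, 10.86, 10.82 and 10.90 on Rad21 esiRNA arrays and 11.09, 11.12, 11.17 and 11.12 on Luc esiRNA arrays. This was the smallest fall past the test, -0.24 ± 0.03 (limma, adjusted p = 0.00241), and the groups did not overlap. Exo1, the other long-range nuclease, changed by -0.01.

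Of the damage kinases, Atr and Chek1, which respond to single-stranded DNA at stalled forks, were lower, whereas Atm and Chek2, which respond to double-strand breaks, did not pass the test. Atr read 9.57, 9.45, 9.59 and 9.53 on Rad21 esiRNA arrays, against 9.87, 9.80, 9.83 and 9.83 on Luc esiRNA arrays. Every Rad21 esiRNA array lay below every control array, with a change of -0.30 ± 0.03 (limma, adjusted p = 0.00126). The other Atr probe sets, with a mean of at least 4, changed by 0.04 (limma, adjusted p = 0.976) and -0.26 (limma, adjusted p = 0.389) and did not pass. Chek1, the kinase that ATR activates, read 10.60, 10.58, 10.77 and 10.77 on Rad21 esiRNA arrays and 11.04, 11.22, 11.22 and 11.13 on Luc esiRNA arrays. The groups did not overlap, and the change was -0.47 ± 0.06 (limma, adjusted p = 0.00223). Of 5 Chek1 probe sets this was the one that passed; it has the suffix _s_at, for probes shared by several transcripts, and the 2 others with a mean of at least 4 read -0.31 (limma, adjusted p = 0.113) and -0.24 (limma, adjusted p = 0.175). Atm changed by 0.04, Chek2 by 0.10 and Rad18, a ubiquitin ligase of damage tolerance, by -0.10. The difference between the kinase pairs was not tested.

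Junction processing gave 1 lower gene out of 4, and all 4 changes were below 0, as were those of 5655 of 10299 genes with a mean of at least 4. Blm, a helicase that dissolves double Holliday junctions, read 10.76, 10.70, 10.72 and 10.65 on Rad21 esiRNA arrays, against 11.16, 11.27, 11.07 and 11.05 on Luc esiRNA arrays. The groups were well apart, and the change was -0.43 ± 0.05 (limma, adjusted p = 0.00138). Eme1, the partner of the nuclease MUS81, did not pass (limma, adjusted p = 0.0588), although its levels of 8.9751, 9.0003, 9.1073 and 9.0617 on Rad21 esiRNA arrays all lay below those of 9.2110, 9.1772, 9.1123 and 9.1477 on Luc esiRNA arrays. The nearest arrays of the 2 groups differed by under 0.01 on this scale. Slx4, a scaffold for nucleases, changed by -0.23 (limma, adjusted p = 0.0979). The brightest Mus81 probe set changed by -0.06 (limma, adjusted p = 0.779), while its other one, with the suffix _s_at, read -0.38 without overlap and did not pass (limma, adjusted p = 0.0883). With both averaged Mus81 was called lower at -0.22 (limma, adjusted p = 0.00389), and so was the brightest one without Luc esiRNA replicate 2, at -0.13 (limma, adjusted p = 0.015).

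The choice of probe set was examined for the 27 genes with more than 1. Their 48 further probe sets were split evenly, 24 with a mean of at least 4, of which 6 passed, and 24 dimmer ones, of which 0 passed. The lower genes had 9 of the brighter further probe sets, and 8 of these had the sign of the brightest one, with 4 of them past the test. Over all 85 probe sets, 17 were lower and 4 were higher, and 0 genes had probe sets called in both directions.

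**Figure D4:**
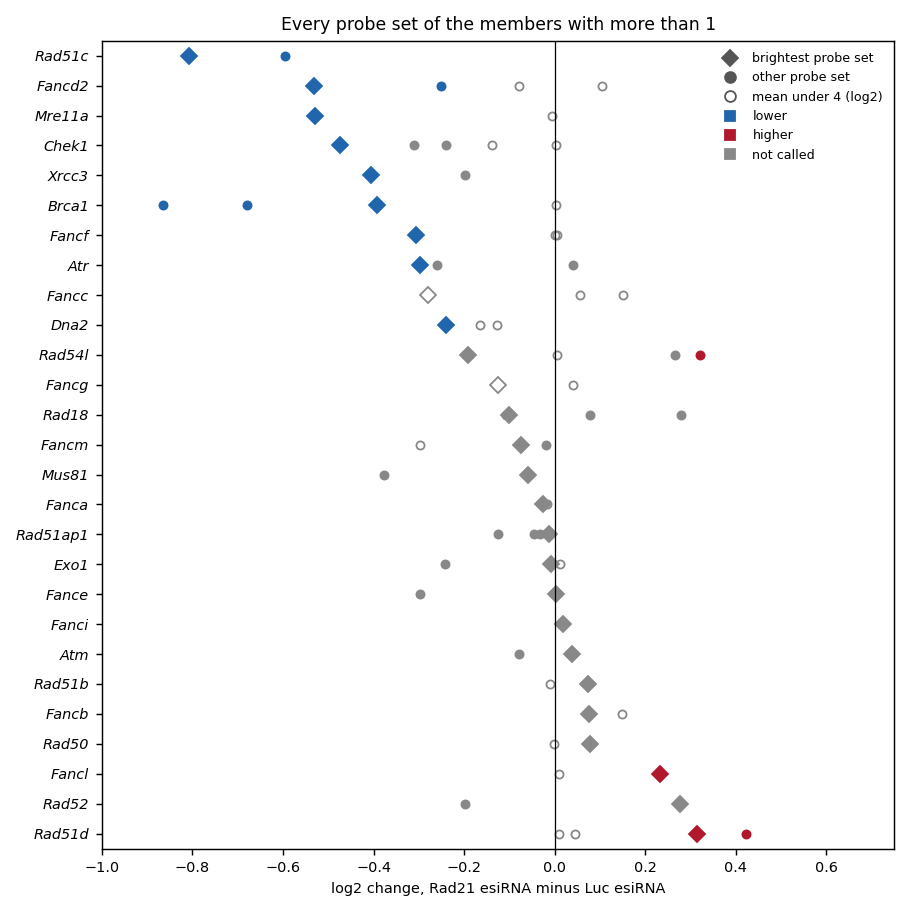
Change of every probe set (horizontal axis, log2, Rad21 esiRNA minus Luc esiRNA) of the 27 genes with more than 1, ordered by the brightest one (diamonds; circles are the others; open symbols have a mean under 4). Brca1, Rad51c and Fancd2 have further probe sets called lower and Rad51d and Rad54l have a further one called higher, while the open circles lie between -0.30 and 0.15.

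Earlier results had set replicates 1 and 2 apart from replicates 3 and 4 in both groups, so the changes were also taken within these sets, for which the labels name no batch. Rad21 itself changed by -1.80 in replicates 1 and 2 and by -1.36 in replicates 3 and 4. All 13 lower genes had been called on these same arrays, without overlap of the groups. A change below 0 in both sets was thus fixed in advance for them. Of the 13 genes, 11 were past the test in replicates 1 and 2 alone, 7 in replicates 3 and 4 alone and 7 in both. Over the whole array 6192 probe sets passed in replicates 1 and 2 alone and 4592 in replicates 3 and 4 alone. In 10 of the 13 the fall was larger in replicates 1 and 2 and in 3, Fancd2, Fancf and Dna2, in replicates 3 and 4. The same share among all lower genes was not taken, and a link with the fall of Rad21 was not tested. Rad51c changed by -1.07 in replicates 1 and 2 and by -0.54 in replicates 3 and 4, the widest gap among the 37 genes, and the difference did not pass (limma interaction, adjusted p = 0.0825). The interaction passed for 0 of the 37 genes and for 350 of 45037 probe sets. Its unadjusted p was under 0.05 for 7 of the 37 genes, beside 5360 of the 45037 probe sets. Signs were the same in both sets for 30 of the 37 genes, beside 26136 of the 45037 probe sets, dim ones included. Of the 7 exceptions among the genes, 0 were past the test, which the lack of overlap fixed for every gene past the test but Rad51d.

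**Figure D5:**
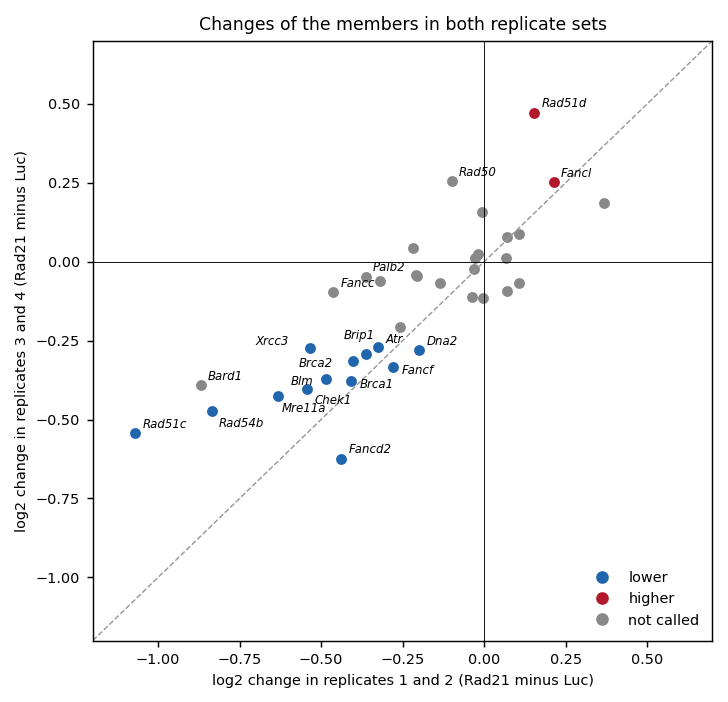
Change of each of the 37 genes in replicates 1 and 2 (horizontal axis) and in replicates 3 and 4 (vertical axis), both log2, Rad21 esiRNA minus Luc esiRNA, with the diagonal of equal change dashed. The lower genes all lie below and to the left of 0, which the lack of overlap of their groups fixed in advance. Of these, 10 of 13 lie above the diagonal, with Rad51c at -1.07 and -0.54.

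Other genes of the same pathways, and of other repair pathways, gave the setting. Of 37 further recombination and crosslink repair genes, 8 were lower (21.6%) and 4 higher (10.8%), with a median of -0.04. Among all genes with a mean of at least 4, 22% were lower and 16.7% higher, so the lower share was near that background. Rtel1, a helicase that takes apart displacement loops, changed by -0.59. Brcc3, a deubiquitinase of the BRCA1-A complex, changed by -0.55 and Swsap1, a mediator of recombination, by -0.32. Ercc4, a nuclease subunit that cuts at crosslinks, was higher by 0.87, and Babam1 and Uimc1 of the BRCA1-A complex were higher by 0.26 and 0.19. Among 17 damage signalling genes 4 were lower (23.5%) and 2 higher (11.8%), with a median of -0.13, and the lower share was again near that background. The lower ones included Hus1 (-0.62), a clamp subunit that acts with ATR, Rad17 (-0.27), its loader, and the phosphatase Cdc25a (-0.41), a target of CHK1, and the higher ones were Rif1 (0.21) and Trp53bp1 (0.19), which restrain resection.

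The other repair lists had medians between -0.15 and -0.05. Lower genes made up 42.9% of base excision, 40% of mismatch, 25% of nucleotide excision and 15.4% of end joining genes. The share was 22% among all genes with a mean of at least 4. Base excision repair had 6 of 14 genes lower and 0 higher (median -0.15), led by the glycosylases Neil1 (-0.75), Nthl1 (-0.55) and Mbd4 (-0.54). In mismatch repair 2 of 5 were lower, Mlh3 (-0.46) and Pms1 (-0.44), and 0 were higher. Nucleotide excision repair had 4 of 16 lower, the largest being Xpc (-0.73), Ercc8 (-0.48) and Rad23b (-0.27), and 1 higher, Ercc5 (0.83). End joining had 2 of 13 lower, the Ku subunits Xrcc5 (-0.82) and Xrcc6 (-0.35), and 1 higher, Xrcc4 (0.35), a ligase cofactor. The lists were described by counts and medians, and differences between them were not tested.

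Many recombination genes are expressed most in S phase, so cell cycle genes are given beside them. Of 24 S phase genes 8 were lower (33.3%, beside 22% of genes with a mean of at least 4) and 0 higher (median -0.14). Among the lower ones were the replication factors Mcm10 (-0.59) and Cdc6 (-0.39) and the repressor E2f8 (-0.42). The mean of the log2 values of all 24 was 11.62 to 11.69 on Rad21 esiRNA arrays and 11.76 to 11.86 on Luc esiRNA arrays, without overlap. Of 22 G2 and M phase genes 10 were higher (45.5%, beside 16.7% of genes with a mean of at least 4) and 0 lower (median 0.15). Mki67 (0.57), Bub1 (0.29) and Ttk (0.28) rose the most. The mean of the log2 values of all 22 was 11.95 to 12.05 on Rad21 esiRNA arrays and 11.82 to 11.92 on Luc esiRNA arrays. All called S phase genes and ESC markers were thus lower, and all called G2 and M phase genes were higher. Not past the test were 16 of the 24 S phase genes and 12 of the 22 G2 and M phase genes. The part of these lists in the falls of the repair genes was not tested.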

How the data were processed

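Values were the deposited log2 values of 8 arrays, made by the authors with GCRMA (RMA with respect to probe GC content) in Partek Genomics Suite 6.4. GCRMA normalizes the arrays against each other, which can hide a shift shared by most transcripts, and it flattens dim probe sets, here those with a mean under 4. The labels give 250 ng of RNA for labelling and the methods another unit. Annotation was not given in the sources used here beyond the annotation of the platform, where 34945 probe sets had 1 symbol, 932 several and 9160 none; all 37 measured genes were found again by Entrez ID in RefSeq. There were 0 unmapped value columns.

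After 64 control probe sets were left out, limma 3.58.1 (lmFit and eBayes, R 4.3.3, statmod 1.5.0, data.table version 1.17.8) was fitted over 45037 probe sets with no block, two-sided, with Benjamini-Hochberg adjustment over all of them and a threshold of 0.05. The methods state a parametric analysis of variance, which was run as an alternative. Nothing says whether the biological replicates were cultured on separate days, so p-values measure only the spread between these samples. The number of arrays limits the precision.

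The 39 genes, the 11 gene lists, the replicate sets and the alternatives were chosen with earlier results of these data known. By the naming rule all 39 genes are named, those past the test with every array, and from every further list no more than 3 called genes per direction, by size. The ESC markers that did not pass, Sox2 and Tdgf1, are named as well. The genes with array values that did not pass, Bard1 and Eme1, were chosen after their values were seen.

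On simulated data for this comparison (45037 probe sets, 5 runs of 200 changed), 22.4%, 48.4% and 83.0% of log2 changes of 0.3, 0.5 and 1 were recovered, and 7.09% of the calls were false. The runs changed 200 probe sets each, while 6697 passed in the data. The Benjamini-Hochberg cutoff was thus stricter in the simulation, and these recovered shares do not describe the real comparison. Figures were drawn with matplotlib 3.10.9 and tables read with pandas 2.3.3.

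Alternatives were the plain analysis of variance, a robust prior with a variance trend, a block for the replicate number or the replicate set, each replicate set alone, array weights, a minimum mean of 4, centring on bright probe sets, quantile normalization, no _x_at or _s_at probe sets, averaging the probe sets of a gene, a threshold of 0.01 and leaving out each array.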

Additional observations from a re-analysis of the deposited data

Results flagged for a closer look

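In 3 of the 74 groups of 4 arrays (37 genes, 2 groups each) 1 array stood apart from the other 3 by Dixon's 95% limit, a number close to the 1 in 20 that chance flags. Rad51d read 7.07 on Rad21 esiRNA array 1, and 7.21 to 7.23 on the other Rad21 esiRNA arrays. Fancf read 9.32 on Luc esiRNA array 3, and 9.21 on each of the others, which lies farther from the Rad21 esiRNA arrays than they do. Rad50 read 9.83 on Luc esiRNA array 3, and 9.98 to 10.00 on the others.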

How the results depend on the processing

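Of the 15 genes past the test, all 15 also passed with array weights, with a minimum mean of 4, after centring on bright probe sets and after quantile normalization; 14 passed with the replicate set as a block, 13 with a variance trend, without _x_at and _s_at probe sets (Chek1 at -0.24 and Xrcc3 at -0.20 were lost) and with probe sets averaged per gene (Atr and Dna2 were lost), 12 in the plain analysis of variance (Rad51c, Rad51d and Brip1 were lost), 11 in replicates 1 and 2, 9 in replicates 3 and 4 and 10 at a threshold of 0.01. Genes were also gained: Rad52 with a minimum mean of 4 and after centring, Eme1 and Mus81 with probe sets averaged, Palb2 in replicates 1 and 2, Rad52, Bard1 and Eme1 without Rad21 esiRNA replicate 3, Mus81 without Luc esiRNA replicate 2 and Rad54l without Luc esiRNA replicate 3. Leaving out each array gave 11 to 14 lower and 1 to 2 higher repair genes and 5395 to 6210 probe sets called. The lower count was 7 in replicates 3 and 4 alone. The higher count was 1 in the plain analysis of variance, with a variance trend, with the replicate block and at 0.01, and 0 in replicates 1 and 2. At 0.01, 3893 probe sets passed.

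Same-numbered arrays of the groups deviated together with correlations of 0.02, 0.13, 0.07 and 0.13, not all over 0.1, so the numbers were not taken as pairs. Across the groups, arrays of the same replicate set correlated at 0.02 to 0.20 and arrays of different sets at -0.19 to -0.04. With the replicate block 13 of the 15 genes passed, Rad51d and Xrcc3 were lost and Slx4 was gained, and 6224 probe sets passed against 6697 without it. With the replicate set as the block 14 of the 15 genes and 8177 probe sets passed.

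Among the other lists, the further recombination genes called numbered 12, and 7 in the plain analysis of variance, 6 in either replicate set alone, 4 at 0.01 and 7 to 9 without 1 array. Mismatch repair had 2, and 1 in the plain analysis of variance, in replicates 1 and 2 and at 0.01 (1 to 2 without 1 array). Nucleotide excision repair had 5, and 3 in replicates 1 and 2. The G2 and M phase genes had 10, and 4 in replicates 1 and 2, 5 in replicates 3 and 4, 4 at 0.01 and 5 to 9 without 1 array. The S phase genes had 8, and 4 in replicates 3 and 4 and 5 at 0.01.

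The sign changed under an alternative for 11 genes, 0 of them among the 15 past the test. For all of these 15 but Rad51d the groups did not overlap, which fixed the sign in any subset of the arrays. With probe sets averaged per gene Atm read -0.0209, Rad18 0.0368, Rad54l 0.10 and Fance -0.15, and Fance read -0.30 without _x_at and _s_at probe sets. In replicates 1 and 2 Fancb read -0.00787, Fance -0.0173, Rad50 -0.0987 and Rad51ap1 0.06995, and in replicates 3 and 4 Exo1 read 0.0103, Fanci -0.0687 and Nbn 0.0444. Quantile normalization gave 0.0106 for Exo1, 0.000977 for Fanca and 0.0116 for Rad51ap1, centring gave 0.0073 for Exo1 and 0.00441 for Rad51ap1, and array weights gave -0.00736 for Fanci. Without 1 array the ranges were -0.0502 to 0.0361 for Exo1, -0.0797 to 0.0211 for Fanca, -0.00663 to 0.0192 for Fance, -0.0134 to 0.0583 for Fanci and -0.0511 to 0.0226 for Rad51ap1. The causes were not tested.

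Signal over background limits Fancc and Fancg. The 22 genes that did not pass are not shown to be unchanged, since no test of equal levels was run. The simulation does not settle this, because it changed far fewer probe sets than passed in the data.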
